A study of Mus musculus with 2 samples.

Results

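The genes described here encode the machinery that docks, primes and fuses secretory vesicles with their target membranes. Members were taken by gene symbol: synaptotagmins (Syt), synaptotagmin-like proteins (Sytl), Snap23, Snap25 and Snap29, syntaxins (Stx) and syntaxin-binding proteins (Stxbp), vesicle-associated membrane proteins (Vamp), Rab3 and Rab27 GTPases, complexins (Cplx), Unc13, Rims and Cadps priming factors, and subunits of the exocyst (Exoc). The symbol pattern for Rab3 also took Rab30 to Rab39 and the Rab3 regulators Rab3gap1, Rab3gap2, Rab3il1 and Rab3ip, and that for the exocyst took the relatives Exoc3l, Exoc3l2 and Exoc3l4. In all, 97 of 18193 genes on the array were members, represented by 219 probe sets.

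Gene expression was measured in 2 islet graft samples on 1 Affymetrix MOE430 2.0 array each. Both carried islets of WT C57BL/6 donors, 50 per recipient, placed under the left kidney capsule, and both were taken at 6 hours after transplantation. The recipient of the first was a hyperglycemic male mouse heterozygous for Akita, a missense mutation of Ins2 (Akita graft), and that of the second was a normoglycemic male WT C57BL/6 mouse (WT graft). The labels give neither the age of these recipients nor how many mice contributed to a sample. The donor islets were WT in both, the genotype of the recipient and its blood glucose cannot be told apart, and the RNA also held kidney tissue next to the graft. With 1 array per condition no test and no SD between samples could be had, so every ratio below compares these arrays.

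Fusion of a secretory vesicle is driven by SNARE proteins. A VAMP on the vesicle zips together with a syntaxin and a SNAP-25 family protein on the target membrane, syntaxin-binding proteins of the Sec1/Munc18 type hold and guide the syntaxin, Unc13, Rims and Cadps proteins prime the vesicle, and synaptotagmins and complexins tie the last step to calcium. In beta cells this pathway releases insulin granules, and neutrophils, mast cells and platelets use related members to release theirs.

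Values are MAS5 signal intensities on a linear scale, and a gene with several probe sets was represented by the brightest. A gene was taken as measured if either signal reached the median of its array, which was 91.5 in the Akita graft and 82.9 in the WT graft. Of the 97 members, 78 were measured, 67 reaching the median on both arrays, 5 with only the Akita signal and 6 with only the WT signal, and 19 had both signals below. Signals of different probe sets are not on a common scale, so levels are set only against the same probe set in the other graft.

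As a set, the measured members gave counts and a median close to those of all genes on the arrays. In the Akita graft 35 were higher and 43 were lower than in the WT graft. The median log2 ratio of Akita over WT was -0.06 (95% interval from order statistics over members, -0.17 to 0.12), and that of all 12538 measured genes was also -0.06. This interval describes the members, which share the same arrays, and holds no difference between animals or arrays. Between the grafts 55 members differed by no more than 1.5-fold and 70 by no more than 2-fold. Over 2-fold, 4 members were higher (5.13%, against 7.56% of all measured genes) and 4 were lower (5.13%, against 5.54%). Over 1.5-fold, 10 were higher (12.8%, against 13.7%) and 13 were lower (16.7%, against 14.4%). Among the 67 members that reached the median on both arrays, 0 were over 2-fold higher, against 3.53% of such genes, and 1, Exoc3l2, was over 2-fold lower, against 1.89%.

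The split of directions depended on the scaling. With each array centred on 12 islet endocrine genes, which lowers every log2 ratio by 0.37, 17 members were higher and 61 lower, and the median was -0.42, against -0.43 for all genes. Any log2 ratio given below as positive and under 0.37 therefore turns negative under that centring. In these bulk samples fewer cells of a type and less RNA per cell cannot be told apart.

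**Figure D1:**
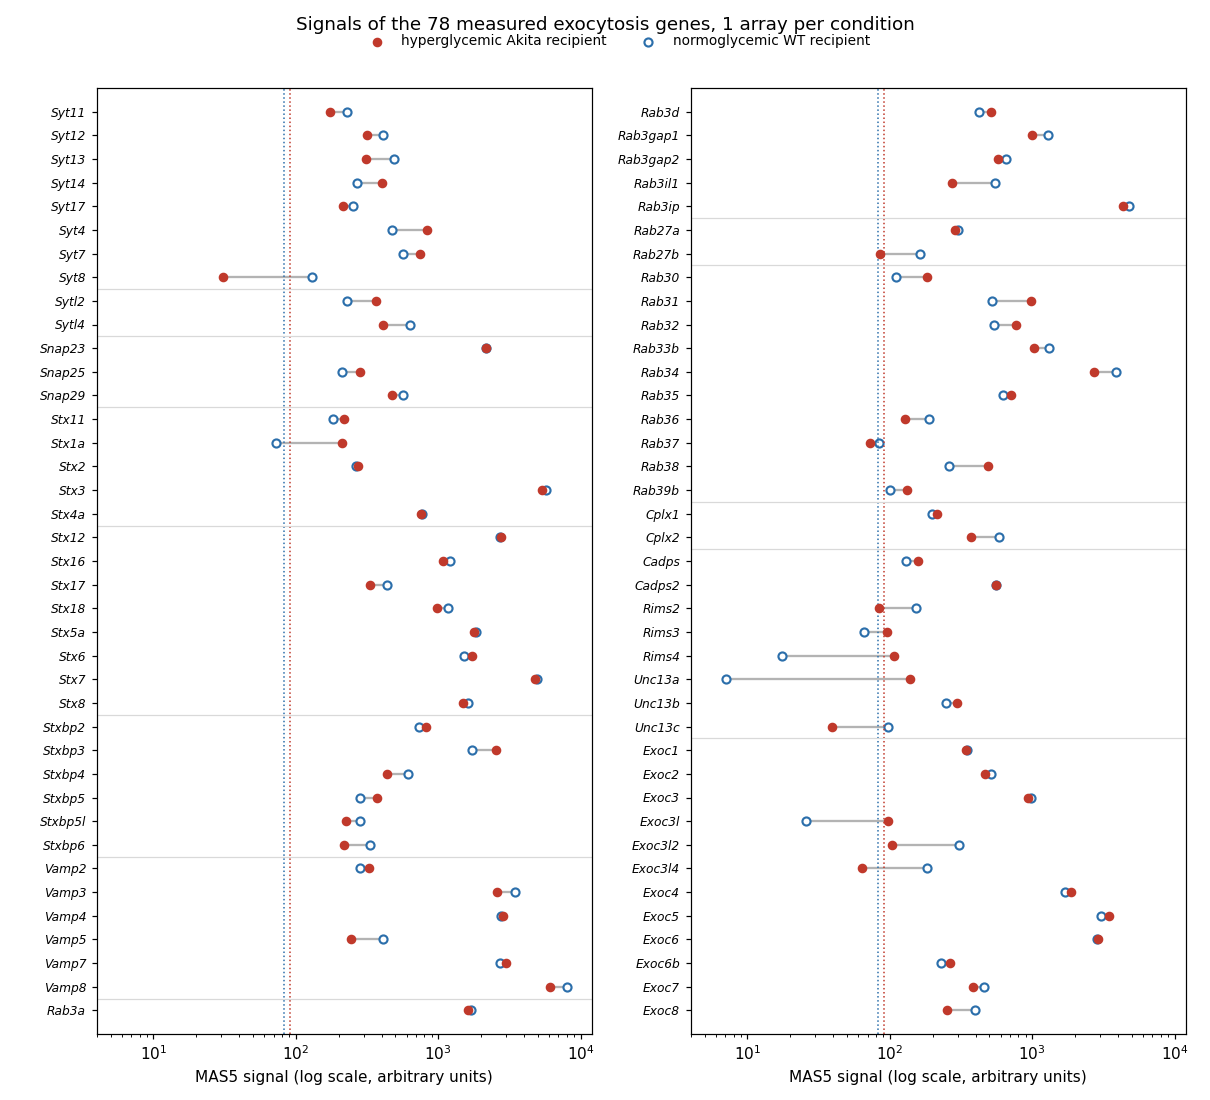
MAS5 signal (horizontal log axis, arbitrary units) of each of the 78 measured members, grouped by role, in the Akita graft (filled points) and the WT graft (open points), with dotted lines at the array medians, 91.5 for Akita and 82.9 for WT. For 70 members the points lie within 2-fold of each other, and of the 8 wider pairs only Exoc3l2 has both points above the medians.

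The size of the ratios followed the signal. All 22 members with a mean signal over 1024 were within 1.5-fold, against 88.8% of the 4194 genes at that signal. These ran from Stxbp3, 1.48-fold higher in the Akita graft, to Rab34, 1.43-fold lower. Of 33 members with a mean signal of 256 to 1024, 21 were within 1.5-fold (63.6%, against 78.8% of 4245 genes). Of 23 dimmer members, 12 were (52.2%, against 47.5% of 4099 genes). Probe sets of 1 gene give a view of the technical spread within these arrays. The SD of the log2 ratio between probe sets of a gene, over all genes, corresponded to 1.16-fold at signals over 1024, 1.26-fold at 256 to 1024, 1.53-fold at 64 to 256, 2.90-fold at 16 to 64 and 3.99-fold at 1 to 16. This spread holds no difference between animals. By a limit of 2 such SDs, 6 members were higher in the Akita graft (7.69%, against 8.57% of all measured genes), namely Rab31, Rab38, Stx1a, Stxbp3, Syt4 and Unc13a. By the same limit 5 were lower (6.41%, against 9.17%), namely Exoc3l2, Exoc3l4, Rab34, Rab3il1 and Vamp5. Unc13a and Exoc3l4 come within the limit once their signal below the array median is raised to it.

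**Figure D2:**
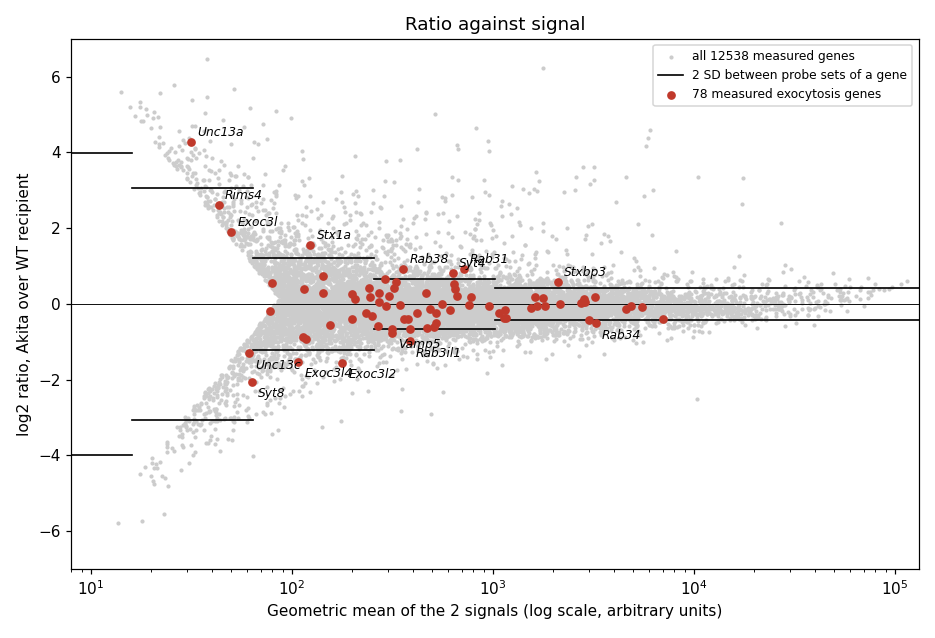
Log2 ratio of Akita over WT signal (vertical axis) against the geometric mean of both signals (log axis, arbitrary units) for the 78 measured members (large points) and all 12538 measured genes (small points), with black lines at 2 SDs between probe sets of 1 gene. The lines narrow from a 2.33-fold limit at signals of 64 to 256 to 1.35-fold over 1024, and 11 members lie outside them.

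A member measured by several probe sets offers a check within the array. Of 42 members with 2 or more measured probe sets, 5 had all of them higher in the Akita graft (11.9%, against 21.8% of 5456 genes with several), 11 had all lower (26.2%, against 27.1%) and 26 had both directions. All measured probe sets passed 1.25-fold in the same direction for 7 members, 3 higher (7.14%, against 7.15%) and 4 lower (9.52%, against 8.60%), which is close to the rate of all such genes. Rab39b, Stxbp3 and Syt4 were higher by this measure, and Cplx2, Rab34, Rab3il1 and Stxbp4 were lower. Stxbp3 encodes a Munc18-type protein that binds syntaxin 4, and Stxbp4 another syntaxin 4-binding protein. Cplx2 encodes a complexin that clamps and then promotes SNARE fusion, and Rab39b a small GTPase of vesicle traffic.

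Such agreement was about as frequent among all genes with several probe sets, so no result about the members rests on it. Promoters of these 7 members were looked at only as a description. For the 4 of them printed here, each has 1 promoter in the RefSeq table of GRCm38.p6, from 250 bases before to 50 after the start of the gene, given 5′ to 3′ along the gene. Capitals mark any match, on either strand, to TGACGTCA (cAMP response element), GGGCGG (GC box), CACGTG (E box), CCAAT (the box of that name), TATAAA (the box bound by TBP, or TATA box) or TGANTCA (AP-1 site). Stxbp3 lies at chr3:108840453-108840752 on the minus strand, Rab39b at chrX:75578182-75578481 on the minus strand, Cplx2 at chr13:54302306-54302605 on the plus strand and Stxbp4 at chr11:90638059-90638358 on the minus strand.
Stxbp3: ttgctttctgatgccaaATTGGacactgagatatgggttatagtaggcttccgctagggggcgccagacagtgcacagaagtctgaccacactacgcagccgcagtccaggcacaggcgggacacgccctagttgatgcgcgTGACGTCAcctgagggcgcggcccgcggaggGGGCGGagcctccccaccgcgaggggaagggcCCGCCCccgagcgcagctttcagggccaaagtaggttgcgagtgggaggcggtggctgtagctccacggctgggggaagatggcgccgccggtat
Rab39b: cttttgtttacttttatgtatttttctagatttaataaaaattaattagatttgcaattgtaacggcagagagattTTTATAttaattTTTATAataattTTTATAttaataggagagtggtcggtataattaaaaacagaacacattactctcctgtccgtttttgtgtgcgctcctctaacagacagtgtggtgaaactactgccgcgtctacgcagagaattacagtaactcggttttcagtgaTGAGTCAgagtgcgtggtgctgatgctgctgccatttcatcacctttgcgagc
Cplx2: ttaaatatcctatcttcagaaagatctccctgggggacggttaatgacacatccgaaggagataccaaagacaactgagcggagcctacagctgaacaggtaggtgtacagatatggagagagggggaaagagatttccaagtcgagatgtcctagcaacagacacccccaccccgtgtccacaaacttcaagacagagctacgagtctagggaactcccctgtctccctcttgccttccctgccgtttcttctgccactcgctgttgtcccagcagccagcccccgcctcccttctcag
Stxbp4: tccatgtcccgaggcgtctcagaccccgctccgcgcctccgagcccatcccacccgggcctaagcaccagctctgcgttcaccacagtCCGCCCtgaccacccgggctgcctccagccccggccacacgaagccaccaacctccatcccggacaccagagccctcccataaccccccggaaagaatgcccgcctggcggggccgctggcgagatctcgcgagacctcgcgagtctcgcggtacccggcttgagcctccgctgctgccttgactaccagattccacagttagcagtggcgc

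The promoter of Stxbp3 is 65.3% G and C and holds 1 cAMP response element, 2 GC boxes and 1 CCAAT box. That of Rab39b is 35.7% G and C and holds 3 TATA boxes and 1 AP-1 site. Stxbp4 has 68.3% G and C with 1 GC box, and Cplx2 has 53.3% with none of the 6 motifs. Of the 97 members, 76 had promoters in the table, 99 in all. The cAMP response element was found in 1 of these (1.01%, against 1.79% of all 32851 promoters, which include those of non-coding genes), and the GC box in 64.6% against 35.7%. The E box was found in 17.2% against 7.15%, CCAAT in 30.3% against 37.4%, the TATA box in 4.04% against 13.6% and the AP-1 site in 6.06% against 7.81%. The median G and C content was 60.7% in member promoters and 52.7% in all. These matches describe letters in the window and not binding.

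Synaptotagmins are the calcium sensors and membrane tethers of the vesicle. The array held 16, of which 8 were measured, 3 higher and 5 lower in the Akita graft, and their median log2 ratio was -0.32. Syt4, a synaptotagmin of dense core vesicles, had a signal of 838 in the Akita graft and 475 in the WT graft, 1.76-fold higher. Its second probe set gave 499 in the Akita graft and 238 in the WT graft, 2.10-fold higher, so both pointed the same way. Syt7, a calcium sensor of insulin granules, had 743 in the Akita graft and 570 in the WT graft (log2 ratio 0.38). Its 3 dimmer probe sets were lower in the Akita graft (log2 ratios -0.17, -0.34 and -2.10), so its direction is not settled.

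Syt13, a synaptotagmin known from beta cells, had a signal of 309 in the Akita graft and 489 in the WT graft, 1.58-fold lower, while its second probe set gave 81.6 in the Akita graft and 92.4 in the WT graft. Syt14, a family member that does not bind calcium, had 406 in the Akita graft and 270 in the WT graft, 1.51-fold higher. Syt11, which also lacks calcium binding, had 174 in the Akita graft and 228 in the WT graft, but its 4 measured probe sets ran from -0.39 to 0.19 in log2 ratio. Both grafts thus gave signals for several members of this family, with ratios on both sides of 1. Syt12 had 314 in the Akita graft and 413 in the WT graft, and Syt17 214 in the Akita graft and 253 in the WT graft. Syt8 had 31.0 in the Akita graft, below the array median, and 129 in the WT graft, at least 1.41-fold lower when the Akita signal is raised to its array median. Syt1, Syt2, Syt3, Syt5, Syt6, Syt9, Syt10 and Syt16 had both signals of their brightest probe sets below the medians. A dimmer probe set reached a median on 1 array for Syt2 (100.0 in the Akita graft and 2.07 in the WT graft) and for Syt6 (11.7 in the Akita graft and 87.9 in the WT graft). Of these, Syt9 is a known calcium sensor of insulin release in the mouse, and its signals were 49.9 in the Akita graft and 54.9 in the WT graft.

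Synaptotagmin-like proteins link Rab27 on a granule to the plasma membrane. Sytl4, or granuphilin, which docks insulin granules, had a signal of 410 in the Akita graft and 632 in the WT graft, 1.54-fold lower. Sytl2 had 363 in the Akita graft and 230 in the WT graft, 1.58-fold higher. The 2 measured members thus went in opposite directions, and Sytl1 had both signals below the medians.

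The SNAP-25 family supplies the target membrane SNARE with a pair of SNARE motifs. Snap25, the form of neurons and endocrine cells, had a signal of 282 in the Akita graft and 210 in the WT graft, 1.35-fold higher. Snap23, its counterpart in most other cells, had 2159 in the Akita graft and 2160 in the WT graft. Snap29, a form of endosomes and autophagosomes, had 477 in the Akita graft and 567 in the WT graft. None of the 3 passed 1.5-fold by its brightest probe set. Dimmer probe sets disagreed, with log2 ratios of -0.74 and 0.22 for Snap23 and of -0.74 and 0.18 for Snap29.

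The plasma membrane syntaxins had 5 of 6 genes measured, and their median log2 ratio was 0.05. Stx1a, the syntaxin of neuronal and insulin granule release, had a signal of 212 in the Akita graft and 72.5 in the WT graft, where it was below the array median, and was thus at least 2.55-fold higher. The probe set belongs to a class that can bind more than 1 transcript, and the other probe set of Stx1a had both signals below the medians. Stx11, a syntaxin of blood cells needed by platelets and killer lymphocytes to release granules, had 218 in the Akita graft and 181 in the WT graft. Its second probe set gave 229 in the Akita graft and 145 in the WT graft, so both were higher, by 1.20-fold and 1.58-fold. Stx2 had 276 in the Akita graft and 265 in the WT graft. Stx3, of the apical membrane of epithelia, had 5356 in the Akita graft and 5712 in the WT graft, and all 4 of its probe sets were lower (log2 ratios between -0.30 and -0.09). Stx4a, syntaxin 4, a partner of Snap23 in constitutive and regulated exocytosis, had 753 in the Akita graft and 770 in the WT graft. Stx19 had both signals below the medians.

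Syntaxins of the endoplasmic reticulum, Golgi and endosomes serve earlier or later steps of traffic. All 8 reached the median on both arrays, and by their brightest probe sets their log2 ratios lay between -0.39 and 0.19 (median -0.09). Stx6, of the trans-Golgi network, had 1729 in the Akita graft and 1515 in the WT graft. Stx17, which acts in autophagosome fusion, had 332 in the Akita graft and 435 in the WT graft, and all 4 of its probe sets were lower. Stx5a, Stx7, Stx8, Stx12, Stx16 and Stx18 lay between these. Measured probe sets disagreed in direction for Stx5a (log2 ratios from -0.06 to 0.51), Stx6 (-2.78 to 0.26), Stx12 (-0.87 to 0.02) and Stx18 (-0.44 to 0.93). Both measured probe sets of Stx8 were lower (-0.18 and -0.12).

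Of the 6 syntaxin-binding proteins, which all reached the median on both arrays, 3 were higher and 3 lower (median log2 ratio -0.08). Stxbp3 had a signal of 2558 in the Akita graft and 1727 in the WT graft, 1.48-fold higher, and its second probe set gave 268 in the Akita graft and 133 in the WT graft, 2.02-fold higher. Stxbp2, Munc18-2 of epithelia and blood cells, had 823 in the Akita graft and 731 in the WT graft, but its 3 probe sets ran from -0.20 to 0.17 in log2 ratio. Stxbp5, or tomosyn, a brake on SNARE assembly, had 373 in the Akita graft and 281 in the WT graft, 1.33-fold higher. Its relative Stxbp5l had 224 in the Akita graft and 281 in the WT graft, but in each gene the other probe sets went the opposite way (log2 ratios -0.13 and -0.47 for Stxbp5, 0.15 and 1.85 for Stxbp5l), so neither direction is settled. Stxbp4 had 439 in the Akita graft and 619 in the WT graft, 1.41-fold lower, and its other probe sets gave log2 ratios of -0.63 and -0.77. Stxbp6, or amisyn, had 219 in the Akita graft and 332 in the WT graft, 1.51-fold lower, but its other probe set was higher (log2 ratio 0.38).

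The VAMPs are the SNAREs of the vesicle itself, and 6 of 7 were measured (median log2 ratio -0.16). Vamp2, the form of synaptic vesicles and insulin granules, had a signal of 326 in the Akita graft and 284 in the WT graft, 1.15-fold higher. Vamp3, or cellubrevin, found in most cells, had 2608 in the Akita graft and 3487 in the WT graft, 1.34-fold lower, but its 5 probe sets ran from -0.42 to 2.72 in log2 ratio. Vamp8, of granule release in platelets, mast cells and the exocrine pancreas, had 6148 in the Akita graft and 8043 in the WT graft, 1.31-fold lower. Vamp7, of lysosomes and late endosomes, had 2973 in the Akita graft and 2710 in the WT graft, and Vamp4, of the Golgi, 2876 in the Akita graft and 2762 in the WT graft. The 3 probe sets of Vamp4 ran from -2.24 to 0.35 in log2 ratio. Vamp5, first known from muscle, had 243 in the Akita graft and 412 in the WT graft, 1.70-fold lower, whereas its second probe set gave 131 in the Akita graft and 75.9 in the WT graft. Using only probe sets designed for 1 transcript turned Vamp5 to a log2 ratio of 0.78. Vamp1 had both signals below the medians.

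Rab3 GTPases mark vesicles for docking, and Rab3a was close to equal by its brightest probe set, with a signal of 1625 in the Akita graft and 1691 in the WT graft. Its dimmer probe set gave 104 in the Akita graft and 130 in the WT graft. Rab3d had 514 in the Akita graft and 424 in the WT graft, but its other measured probe sets disagreed (log2 ratios 0.22 and -0.35). Rab3b and Rab3c had both signals below the medians. The enzymes that switch Rab3 off, Rab3gap1 and Rab3gap2, had log2 ratios of -0.37 and -0.17, but the second probe set of Rab3gap2 was higher (0.43). Rab3il1, or GRAB, an exchange factor first described for Rab3a, had 274 in the Akita graft and 544 in the WT graft, 1.98-fold lower. Its second probe set gave 162 in the Akita graft and 332 in the WT graft (log2 ratio -1.04), so both probe sets were low in the Akita graft. Rab3ip, or rabin8, had 4366 in the Akita graft and 4789 in the WT graft, and its second probe set 1277 in the Akita graft and 1989 in the WT graft, 1.56-fold lower.

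Rab27a, the Rab of insulin granules and lytic granules, had a signal of 289 in the Akita graft and 300 in the WT graft. Rab27b, of platelets and secretory cells, had 85.1 in the Akita graft, below the array median, and 162 in the WT graft, at least 1.77-fold lower. Of its other measured probe sets 1 was higher and 1 lower (log2 ratios 0.50 and -0.60), so they disagreed.

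The group Rab30 to Rab39, taken in by the symbol pattern, had 10 of 12 genes measured, 6 higher and 4 lower, with a median log2 ratio of 0.30. The median was -0.07 with centring on islet endocrine genes and -0.20 with only probe sets designed for 1 transcript. Rab31, a GTPase of the trans-Golgi network and endosomes, had a signal of 989 in the Akita graft and 523 in the WT graft, 1.89-fold higher. Rab38, of lysosome-related organelles, had 492 in the Akita graft and 261 in the WT graft, 1.89-fold higher, but its second probe set had 258 in the Akita graft and 300 in the WT graft. Its relative Rab32 had 764 in the Akita graft and 535 in the WT graft, 1.43-fold higher. Rab30, a Golgi GTPase, had 184 in the Akita graft and 111 in the WT graft, 1.66-fold higher. Rab39b had 131 in the Akita graft and 99.9 in the WT graft, and its second probe set 104 in the Akita graft and 50.9 in the WT graft, 1.32-fold and 2.05-fold higher. Rab34, a GTPase of the Golgi and lysosome position, had 2726 in the Akita graft and 3894 in the WT graft, 1.43-fold lower. Its second probe set gave 2645 in the Akita graft and 3437 in the WT graft. Rab33b, Rab36 and Rab37 were lower (log2 ratios -0.37, -0.56 and -0.20) and Rab35 was higher (0.20), while Rab33a and Rab39 had both signals below the medians. The second measured probe set of Rab36 was not lower (log2 ratio 0.10).

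Complexins bind the assembled SNARE complex. Cplx2 had a signal of 375 in the Akita graft and 587 in the WT graft, 1.57-fold lower, and its other probe sets gave 329 in the Akita graft and 444 in the WT graft, and 51.4 in the Akita graft and 89.4 in the WT graft. All 3 probe sets were thus low in the Akita graft. Cplx1 had 214 in the Akita graft and 197 in the WT graft, but its second measured probe set was lower (log2 ratio -0.36). Cplx3 and Cplx4 had both signals below the medians.

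Of 10 priming and active zone factors 8 were measured, but only 3 reached the median on both arrays. The median log2 ratio was 0.29, -0.08 with centring on islet endocrine genes, and -0.31 when the median over all probe sets of each gene was taken. Unc13b, or Munc13-2, had a signal of 299 in the Akita graft and 246 in the WT graft, and Cadps, a priming factor of dense core vesicles, 159 in the Akita graft and 129 in the WT graft. Cadps2 had 559 in the Akita graft and 558 in the WT graft. None of these 3 passed 1.5-fold.

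The other measured priming factors each had 1 signal below its array median. Unc13a, Munc13-1 of beta cells and neurons, had 139 in the Akita graft and 7.12 in the WT graft, at least 1.67-fold higher. Rims4 had 107 in the Akita graft and 17.5 in the WT graft, at least 1.29-fold higher, but its second probe set had the opposite pattern, 5.40 in the Akita graft and 107 in the WT graft. Rims3 had 96.2 in the Akita graft and 66.1 in the WT graft. Rims2, a Rab3 effector of insulin granule docking, had 84.0 in the Akita graft and 153 in the WT graft, at least 1.68-fold lower by this brightest probe set. Its other measured probe set reached both medians, with 94.0 in the Akita graft and 110 in the WT graft, only 1.17-fold lower. Unc13c had 39.1 in the Akita graft and 96.8 in the WT graft, at least 1.06-fold lower. Rims1 and Unc13d had both signals below the medians.

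The exocyst tethers vesicles to the plasma membrane before SNAREs engage. Its subunits Exoc1 to Exoc8 all reached the median on both arrays, 3 higher and 5 lower (median log2 ratio -0.04). Exoc5 had 3455 in the Akita graft and 3028 in the WT graft, and Exoc4 1886 in the Akita graft and 1692 in the WT graft. Exoc6 had 2923 in the Akita graft and 2844 in the WT graft, and Exoc3 938 in the Akita graft and 975 in the WT graft. By their brightest probe sets these core subunits were thus near equality. Measured probe sets disagreed in direction for Exoc3 (log2 ratios from -0.06 to 0.47), Exoc4 (-3.15 to 0.74) and Exoc6 (-0.81 to 0.04). Exoc1 had 344 in the Akita graft and 350 in the WT graft, Exoc2 466 in the Akita graft and 513 in the WT graft, and Exoc7 384 in the Akita graft and 458 in the WT graft. Exoc8 had 251 in the Akita graft and 398 in the WT graft, 1.58-fold lower, with a second probe set of the opposite direction (log2 ratio 0.35). Exoc6b, a paralog of Exoc6, had 263 in the Akita graft and 230 in the WT graft.

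The Exoc3 relatives varied more. Exoc3l2 had 104 in the Akita graft and 307 in the WT graft, 2.95-fold lower, the only member over 2-fold that reached the median on both arrays. Exoc3l4 had 63.7 in the Akita graft and 183 in the WT graft and was at least 2-fold lower, and Exoc3l 96.6 in the Akita graft and 26.0 in the WT graft, at least 1.17-fold higher. All 6 measured endothelial markers were also lower in the Akita graft (median log2 ratio -0.81), and their part in the Exoc3l2 value was not tested.

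**Figure D3:**
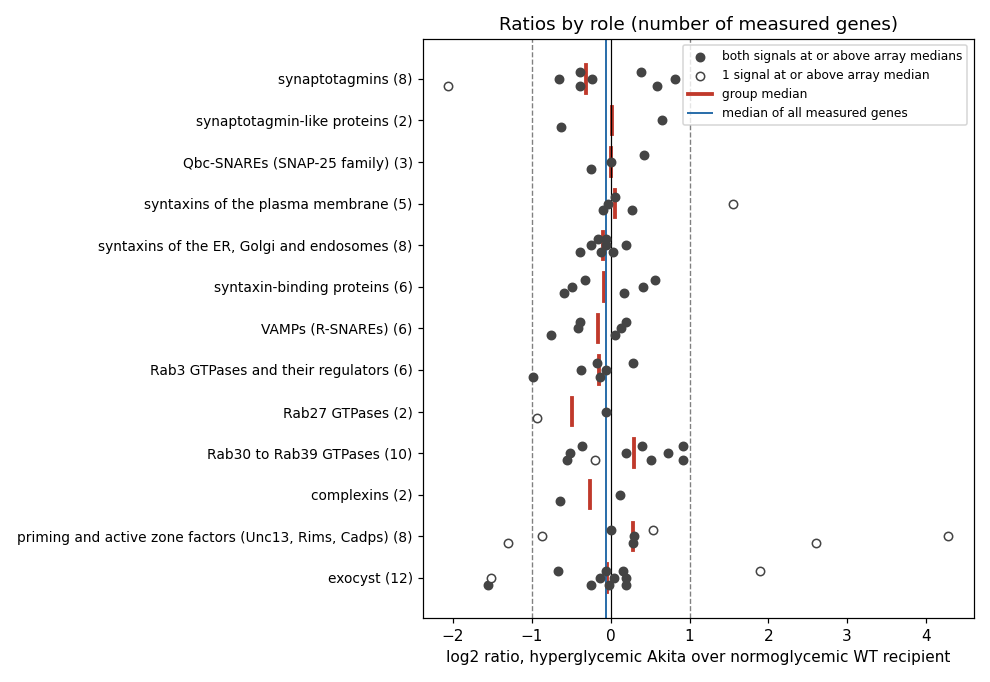
Log2 ratio of Akita over WT signal of each measured member (points, open where 1 signal was below its array median) by role group, with the group median (thick line), the median of all measured genes (thin line) and dashed lines at 2-fold. The syntaxins of the ER, Golgi and endosomes lie between -0.39 and 0.19, and Exoc1 to Exoc8 between -0.66 and 0.19, while the priming factors spread widest.

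**Figure D4:**
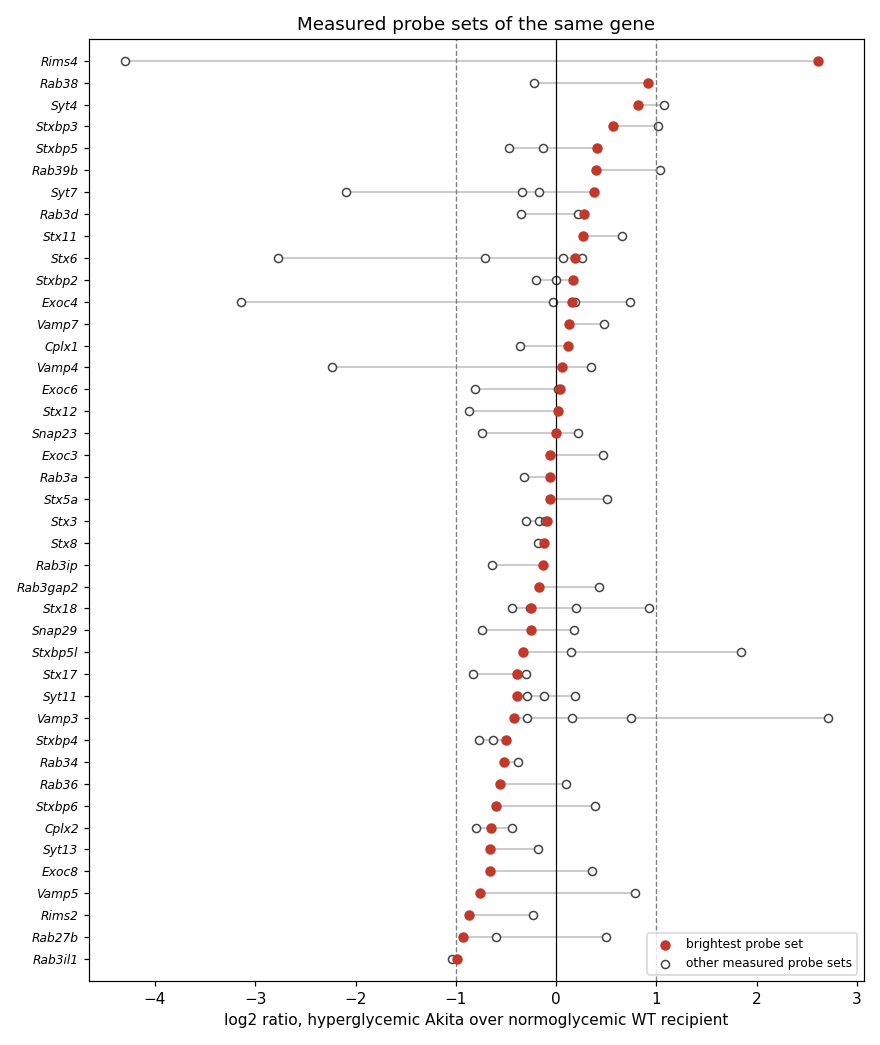
Log2 ratio of Akita over WT signal (horizontal axis) of every measured probe set of the 42 members with several, the brightest filled, with dashed lines at 2-fold. All probe sets of Stxbp3, Syt4 and Rab39b lie above 0 and all of Cplx2, Rab34, Rab3il1 and Stxbp4 below, while 26 of 42 members have probe sets on both sides.

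Members were also read by the cells that use them. Of 26 members known from beta cell exocytosis 19 were measured, 11 higher and 8 lower in the Akita graft, with 2 over 2-fold higher (Stx1a and Unc13a), 0 over 2-fold lower and a median log2 ratio of 0.12. Of all measured genes 7.56% were over 2-fold higher and 5.54% lower, and only Stx1a stays over 2-fold with low signals raised to the array medians. The 9 measured beta cell markers split into 5 higher and 4 lower, with a median of 0.36. Among them Ins2 was at 88302 in the Akita graft and 68738 in the WT graft. Nkx6-1 was at 481 in the Akita graft and 658 in the WT graft. All 5 markers of other islet endocrine cells were higher (median 1.43), with Gcg at 26023 in the Akita graft and 10784 in the WT graft. Of 13 members known from granule release of blood cells 11 were measured, 5 higher and 6 lower, with 0 over 2-fold and a median of -0.00. All 13 macrophage markers were over 2-fold higher in the Akita graft, with a summed signal of 93123 there and 11642 in the WT graft, and 7 of 9 measured mast cell markers were over 2-fold higher, 4 of them with low signals raised to the array medians. Over 2-fold higher were also 3 of 4 measured neutrophil markers (median log2 ratio 1.91), 3 of 5 platelet markers (median 1.04) and both measured B cell markers. Lower were 1 measured neutrophil marker and 1 platelet marker. The array held 8 neutrophil and 3 B cell markers, the rest having both signals below the medians. With low signals raised to the array medians, 3 neutrophil, 2 platelet and 2 B cell markers stayed over 2-fold higher. The part of these cells in the ratios of Rab31, Rab32, Stx11 and the other members was not tested. Of the neuron and Schwann cell markers 1 of 4 was measured, and all 7 markers of nephron segments other than the proximal tubule were lower (median -0.57).

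Genes that act beside the members gave 63 measured of 72, with 4 over 2-fold higher, 3 over 2-fold lower and a median log2 ratio of -0.14, where 7.56% of all measured genes were over 2-fold higher and 5.54% lower. The 4 genes that take used SNARE complexes apart were Nsf (log2 ratio -0.19), Napa (-0.08), Napg (0.08) and Napb (0.86). Of 11 other SNAREs, 0 passed 1.5-fold, Gosr2 being the lowest (-0.42) and Bet1 the highest (0.40). Of 16 Rab effectors and calcium sensors on the array 11 were measured, 9 of them reaching the median on both arrays. All 11 were lower in the Akita graft (median -0.51), 2 of them over 2-fold. Of all 12538 measured genes 6917 were lower. The unmeasured ones, with both signals below the medians, pointed both ways (Doc2b log2 ratio 2.10, Doc2a -2.28). Erc1, an active zone scaffold, had 119 in the Akita graft and 297 in the WT graft, and Exph5, the Rab27 effector Slac2-b, 216 in the Akita graft and 446 in the WT graft. Dysf, a membrane repair ferlin, had 92.7 in the Akita graft and 156 in the WT graft, and Rimbp2 99.6 in the Akita graft and 158 in the WT graft.

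Vesicle membrane proteins had 3 of 21 over 2-fold higher (Ptprn, Sv2b and Synpr) and 1 over 2-fold lower (median -0.09). These 3 had WT signals below the array median, and 0 of them stayed over 2-fold with such signals raised to it. Sv2a, a glycoprotein of secretory vesicles, had 134 in the Akita graft and 276 in the WT graft, and the synapsins Syn2 128 in the Akita graft and 253 in the WT graft and Syn1 159 in the Akita graft and 84.5 in the WT graft, in opposite directions. Vps33a, a Sec1/Munc18 protein of lysosomes, had 212 in the Akita graft and 359 in the WT graft. Among 16 exocytic and recycling GTPases and their effectors (median -0.03), Rab8b had 2149 in the Akita graft and 1030 in the WT graft, 2.09-fold higher, and Arf6 8889 in the Akita graft and 5478 in the WT graft, 1.62-fold higher. The Rab11 effectors Rab11fip5 and Rab11fip2 had log2 ratios of -0.53 and 0.46.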

How the data were processed

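Islet graft RNA was profiled on 1 MOE430 2.0 array per condition. The authors deposited signal intensities that MAS5 had computed, not log-transformed, for 45101 probe sets including 64 controls. No source used here states the version or settings of MAS5. After trimming 2% at either end, the mean was 500.004 on both arrays. The 3′ over 5′ ratio of Actb was 3.99 in the Akita graft and 3.54 in the WT graft, and that of Gapdh 1.76 in the Akita graft and 1.30 in the WT graft.

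Probe sets with exactly 1 symbol in the platform annotation (34945) were used, and 5 probe sets of members with several symbols were left out. All 97 members matched RefSeq genes of GRCm38.p6 by gene identifier. Signals were compared without further scaling. A signal below its array median was raised to that median for an "at least" fold.

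Members and lists were chosen with earlier results of these data known. Values are given for measured members over 1.5-fold, for those known from beta cell or blood cell exocytosis and for Exoc1 to Exoc8, and for up to 4 other genes per list reaching the median on both arrays. Other values named were chosen after they were seen. The counting of genes over 2-fold was tried on simulated data with known folds, and the calculation of the spread between probe sets was not. The simulated noise was set below that spread, so the trial does not show how the counting fares at the full spread. The arrays, 1 per condition, limit the precision. Alternatives covered scaling (including loess, span 0.3, 3 iterations), floors, filters, choice of probe sets and fold limits. Calculations ran in Python 3.11.15 with pandas 2.3.3, numpy 2.4.6, statsmodels 0.14.6 and scipy 1.17.1, and matplotlib 3.10.9 drew the plots.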

Additional observations from a re-analysis of the deposited data

How the results depend on the processing

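The count of 4 members over 2-fold higher in the Akita graft became 1 with a floor at the median of each array, 0 at the 75th percentile, 1 with the array median added, 0 with both signals required at or above the medians, 11 without a filter, 9 with the median over probe sets and 10 at 1.5-fold. The count of 4 over 2-fold lower became 11 with centring on islet endocrine genes, 2 and 0 with these floors, 0 with the median added, 1 with both signals required, 13 at 1.5-fold and 1 at 3-fold. Of all measured genes 7.56% were over 2-fold higher and 5.54% lower. With both signals required, which left 67 members, these shares were 3.53% and 1.89%, and at 1.5-fold they were 13.7% and 14.4%. Without a filter all 97 members were counted. Shares of all genes under the other settings are not given here, so those counts are not set against all genes. Centring on islet endocrine genes, a shift of 0.37, gave a median log2 ratio of -0.42 over members, -0.37 for the SNAP-25 family, -0.31 for plasma membrane syntaxins and -0.46 for the other syntaxins, and the Rab27 median was 0 with the floor at the 75th percentile. The 16 of 42 members with all probe sets on 1 side became 26 with that centring and 5 with that floor. Rims4 turned to -0.85 with the median over probe sets. Of 167 medians over members and groups 162 stayed within a 95% interval over the group's own genes, or within their range in the smallest groups. In small groups this interval covered all the genes, from -1.31 to 4.29 for the priming factors. A median could thus change sign and still count as unmoved, so this count says little about stability. Of 914 values of single members 804 moved by no more than 1 SD between probe sets of a gene at their signal. The cause of each change was not tested beyond what the setting itself does. Low signals limit the dim members. No paired analysis was possible because there is 1 array per condition.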
